A study of Homo sapiens with 6 samples.

Results

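The genes described here encode the adrenergic and dopamine receptors, the cell surface receptors for noradrenaline, adrenaline and dopamine. They were chosen by symbol from 12 families of neurotransmitter receptor genes (GRIA, GRIK, GRIN, GRM, GABR, GLRA, CHRN, CHRM, ADRA, ADRB, DRD and HTR), which hold 99 genes in the gene table used. A named probe set was available for 13 of them, all in 3 families, with 6 ADRA genes, 2 ADRB genes and 5 DRD genes. The other 86, among them the glutamate, GABA, glycine, acetylcholine and serotonin receptor genes, were not analysed here. The 13 genes are set among 14883 named genes in all. Each had 1 probe set, so taking the brightest probe set per gene left no choice among them. In addition, 6 symbols share the opening letters but not the family naming (the serine protease genes HTRA1, HTRA2, HTRA3 and HTRA4, the pseudogene HTR7P1 and the antisense transcript GRM5-AS1). They were left out, and 0 of these 6 passed the test used below (limma), or an unadjusted p of 0.05.

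The study asked how BRG1, a SWI/SNF chromatin remodeller that burns ATP to move nucleosomes, bears on the viability of neuroblastoma cells. The groups were SK-N-BE(2) cells infected with a pLKO lentivirus carrying the shBRG1 hairpin (n = 3) and the same cells infected with a pLKO lentivirus carrying a non-silencing control (NSC, n = 3). SK-N-BE(2) is an established human neuroblastoma line. Cells of both groups were grown in the same serum-containing medium with an insulin, transferrin and selenium supplement, and RNA was taken 48 h after infection. Of each sample, 200 ng of total RNA went onto 1 array. The labels do not say whether the 3 infections of a group were separate cultures, so the p-values may reflect technical spread alone. All samples come from 1 line and 1 hairpin label, and the level of the target was not analysed here. In such bulk RNA, fewer cells that carry a transcript and less transcript per cell cannot be told apart.

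Adrenergic and dopamine receptors span the cell membrane and signal through G proteins. Alpha1 adrenergic receptors couple mainly to phospholipase C and raise calcium. Alpha2 receptors inhibit adenylyl cyclase and, on sympathetic nerve endings, act as autoreceptors that restrain noradrenaline release, and beta receptors stimulate the cyclase. Dopamine receptors of the D1-like class (DRD1 and DRD5) stimulate adenylyl cyclase, and those of the D2-like class (DRD2, DRD3 and DRD4) inhibit it. Neuroblastoma arises from the sympathoadrenal lineage, whose cells make noradrenaline through dopamine.

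The line carried the transcripts of that lineage. Of 14 measured adrenergic neuroblast markers, 13 had a mean log2 expression value of at least 5, and the mean over the list was 9.09 to 9.15 on the shBRG1 arrays and 9.33 to 9.36 on the NSC arrays. Of 7 Schwann and glial markers 1 reached a mean of 5, as did 1 of 3 blood cell markers. The list means were 3.95 to 3.99 on shBRG1 arrays and 4.01 to 4.13 on NSC arrays for the glial markers, and 4.51 to 4.72 on shBRG1 arrays and 4.66 to 4.70 on NSC arrays for the blood cell markers. The 3 measured fibroblast and mesenchymal markers (DCN, LUM and THY1) all reached a mean of 5, with list means of 7.18 to 7.32 on shBRG1 arrays and 6.92 to 7.09 on NSC arrays. The 1 measured cortical neuron marker, NEUROD6, was at 2.30 to 2.51 on shBRG1 arrays and 2.52 to 2.68 on NSC arrays. In the limma comparison described below, DCN and LUM rose (9.78% of all named genes did), and 8 of the 14 adrenergic markers and the glial marker FOXD3 fell (7.19% of all named genes did). DCN, LUM and 13 of the adrenergic markers had means of at least 5. At such levels 1302 of 7623 named genes rose and 895 fell. FOXD3 and ALK, 1 of the 8 adrenergic markers that fell, had lower means, where 175 of 7260 named genes fell. The part of these marker changes in the receptor values was not tested.

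Estimated changes of these receptor genes with the BRG1 hairpin were all under 2-fold. Few named genes changed more: 103 of 14883 reached 2-fold, 96 with a mean of at least 5 and 7 with a lower one. Most of the 13 receptor genes had a mean below 5, where calls are fewer, so shares at like levels follow in the next paragraph. With limma and p-values adjusted over all named genes, 1 of the 13 (DRD4, a D2-like dopamine receptor) passed an adjusted p of 0.05 and was higher, 0 passed and were lower, and 12 were not past the threshold. Over all named genes 17% were called, 9.78% higher and 7.19% lower. At an unadjusted p of 0.05, 3 of the 13 genes passed (ADRA2B and ADRA2C lower, DRD4 higher), which is 23.1%, against 30.4% of all named genes. The 3 shBRG1 values lay wholly outside the NSC range for the same 3 genes, again 23.1%, against 35.5% of all named genes (20.3% higher and 15.3% lower in shBRG1). The size of the change had a median of 0.12 on the log2 scale over the 13 genes and 0.14 over all named genes. No 95% confidence interval of the 13 reached a 2-fold change in either direction.

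Splitting the genes at a mean over the 6 arrays of 5, as the rule does, put ADRA2C, DRD2 and ADRA1B in an expressed group of 3 and the other 10 in a group called silent. Of the named genes as a whole, 7623 had a mean of at least 5 and 7260 a lower one. ADRA1B was the gene just inside the limit, at 5.14, and ADRB1 (4.99), ADRB3 (4.69) and DRD5 (4.62) were the nearest outside it. Detection calls were not used here, the array medians over all probe sets lay between 3.77 and 3.84, and a probe set's value depends on its probes as well as on its transcript. A gene called silent is therefore one with a dim probe set, and the values do not rank the genes by transcript number. Calls were 0 of 3 in the expressed group, against 28.8% of all named genes at such levels. In the silent group they were 1 of 10, against 4.52%. The unadjusted threshold in limma was passed by 1 of 3 expressed genes, against 46.1%, and by 2 of 10 silent genes, against 13.9%. The shBRG1 values lay outside the NSC range for 1 of 3 expressed genes, against 54%, and 2 of 10 silent genes, against 16.1%. Counts this small do not show that the receptor genes differed less often than other genes at like levels. The median change was -0.22 in the expressed group and -0.08 in the silent group, and 0.06 and -0.02 over all named genes at those levels. Without 1 array, the median of the expressed group ranged from -0.24 to -0.10 (-0.10 without NSC replicate 3), and that of the silent group from -0.11 to -0.0039 (-0.0039 without shBRG1 replicate 2 and -0.03 without NSC replicate 1).

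**Figure D1:**
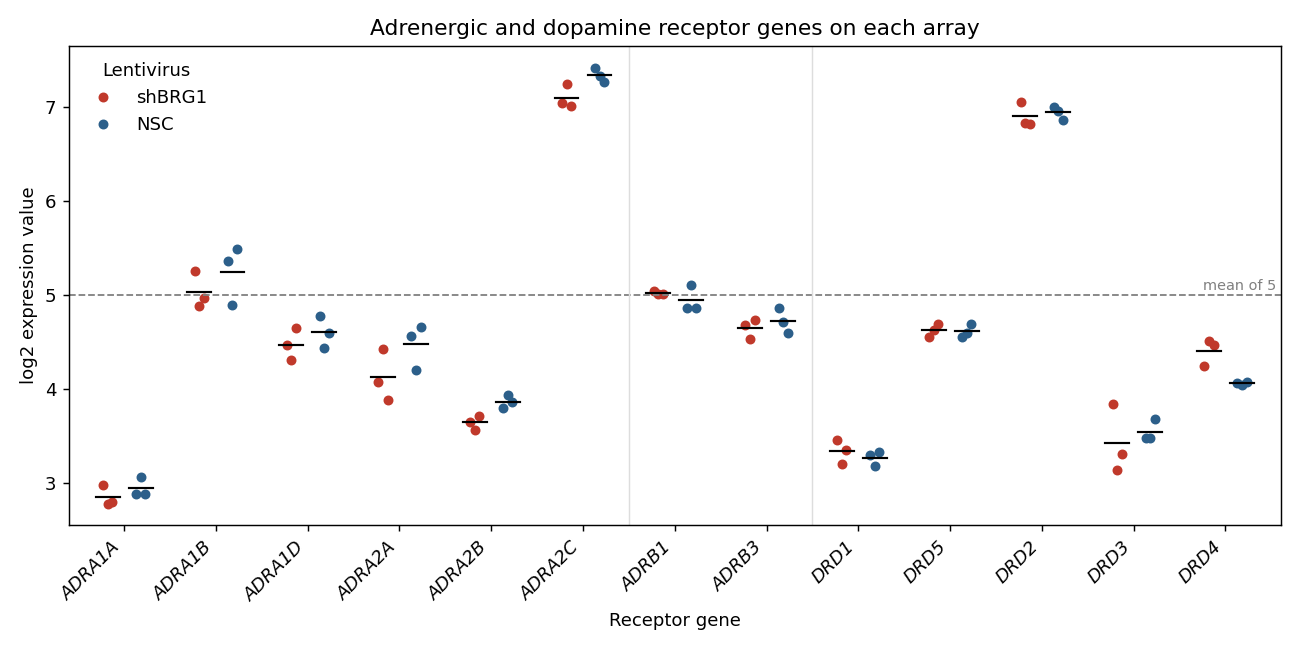
Log2 expression value of each of the 13 receptor genes on each array, with shBRG1 (red) left of NSC (blue) for every gene. Points are arrays (n = 3 per group), black bars are group means, and the dashed line marks a value of 5. ADRA2C and DRD2 stand near 7 in both groups, and most other genes lie below 5.

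ADRA2C encodes the alpha2C adrenergic receptor, an inhibitory receptor and autoreceptor of sympathetic nerve endings. Its log2 expression values were 7.05, 7.25 and 7.01 on the shBRG1 arrays, against 7.42, 7.34 and 7.27 on the NSC arrays. Every shBRG1 value lay below every NSC value, although shBRG1 replicate 2 lay just below the lowest NSC value. The means were 7.10 ± 0.13 in shBRG1 and 7.34 ± 0.08 in NSC (SD, n = 3 each), a change of -0.24 (SE 0.09), or 1.18-fold lower in shBRG1. With limma the adjusted p was 0.11, so ADRA2C was not past the threshold. The 95% interval of the change ran from -0.44 to -0.04. The call depended on the setting: the adjusted p was 0.035 after cyclic loess (change -0.31), 0.040 with dim genes left out and 0.047 with trend and robust options, in a range of 0.035 to 0.27 over 15 alternatives.

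ADRA2A and ADRA2B encode the other two alpha2 receptors, of which alpha2A is the main autoreceptor of sympathetic neurons. ADRA2A had log2 values of 4.08, 4.42 and 3.88 on the shBRG1 arrays, against 4.57, 4.20 and 4.67 on the NSC arrays. The groups overlapped, since shBRG1 replicate 2 was above NSC replicate 2, and the change of -0.35 (SE 0.17) had a 95% interval from -0.74 to 0.04 (limma adjusted p = 0.21). ADRA2B had values of 3.66, 3.57 and 3.72 on the shBRG1 arrays, against 3.80, 3.94 and 3.87 on the NSC arrays. These groups did not overlap, but the values lie near the array medians, where the signal may be background. Its change was -0.22 (SE 0.07), with a 95% interval from -0.39 to -0.05 and a limma adjusted p of 0.085 (0.073 to 0.21 over 14 alternatives).

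The alpha1 receptor genes, whose products drive calcium signalling, did not pass. ADRA1B had log2 values of 5.26, 4.88 and 4.97 on the shBRG1 arrays, against 5.37, 4.90 and 5.49 on the NSC arrays. The low NSC value, of replicate 2, lay beside the lowest shBRG1 value, and the NSC standard deviation was 0.31. The change was -0.22 (SE 0.17; 95% interval -0.61 to 0.17; limma adjusted p = 0.45). It was -0.39 without NSC replicate 2 and -0.10 without NSC replicate 3, with adjusted p-values of 0.10 and 0.77, in a range of 0.10 to 0.77 over the alternatives. ADRA1D had values of 4.47, 4.31 and 4.65 on the shBRG1 arrays and 4.78, 4.44 and 4.60 on the NSC arrays (change -0.13, SE 0.12, limma adjusted p = 0.53). ADRA1A, the dimmest of the 13 probe sets, had 2.98, 2.78 and 2.80 on the shBRG1 arrays and 2.89, 3.06 and 2.89 on the NSC arrays (change -0.09, SE 0.09, limma adjusted p = 0.55). In both genes the groups overlapped.

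The estimated change was negative for 6 of 6 ADRA genes, with a median of -0.22, whereas it was negative for 48.9% of all named genes. The share was 41.2% for named genes with a mean of at least 5 and 56.9% for those below. None of the 6 passed the adjusted threshold in limma, 2 passed an unadjusted p of 0.05, and the signs alone therefore describe these arrays. The negative sign of each of the 6 estimates held under every alternative in which it was fitted.

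The beta receptor genes gave no measurable difference. ADRB1 encodes the beta1 receptor, which stimulates heart rate and force, and its log2 values were 5.05, 5.01 and 5.01 on the shBRG1 arrays, against 4.87, 5.11 and 4.86 on the NSC arrays. The 3 shBRG1 values were close together and lay inside the NSC range, and the change was 0.08 (SE 0.09; 95% interval -0.12 to 0.28; limma adjusted p = 0.61). ADRB3 encodes the beta3 receptor of fat tissue and bladder, with values of 4.68, 4.53 and 4.73 on the shBRG1 arrays and 4.87, 4.72 and 4.60 on the NSC arrays. The change was -0.08 (SE 0.09; 95% interval -0.30 to 0.14; limma adjusted p = 0.64), and the groups overlapped.

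DRD2, which encodes the inhibitory D2 receptor and is the target of many antipsychotic drugs, was one of the brighter genes. Its log2 values were 7.05, 6.83 and 6.83 on the shBRG1 arrays, against 7.001, 6.96 and 6.87 on the NSC arrays. The groups overlapped, with the highest of the 6 values on a shBRG1 array. The means were 6.90 ± 0.13 in shBRG1 and 6.94 ± 0.07 in NSC (SD, n = 3 each), and the change was -0.04 (SE 0.09, limma adjusted p = 0.80). The 95% interval, from -0.24 to 0.16, bounds a fall or rise of DRD2 on these arrays well below 2-fold, without showing that the levels are equal.

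DRD4 encodes the D4 receptor, a D2-like receptor known for a repeat of variable length in its coding region. Its log2 values were 4.25, 4.51 and 4.47 on the shBRG1 arrays, against 4.07, 4.05 and 4.07 on the NSC arrays. All shBRG1 values were above all NSC values, and the NSC arrays were nearly identical (SD 0.01). The means were 4.41 ± 0.14 in shBRG1 and 4.06 ± 0.01 in NSC (SD, n = 3 each), a change of 0.35 (SE 0.08; 95% interval 0.15 to 0.54), or 1.271-fold higher in shBRG1, with a limma adjusted p of 0.030. The probe set was dim, and NSC values this close to the array medians may be largely background, which bears on the size of the rise. The call was lost without any 1 of 5 arrays (adjusted p 0.074 to 0.098, changes 0.30 to 0.35) and held without shBRG1 replicate 1 (0.43, adjusted p = 0.020). It was also lost with trend and robust options (0.0502) and with every probe set tested (0.094).

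The remaining dopamine receptor genes were dim and did not pass. DRD3, whose product is another D2-like receptor, had log2 values of 3.84, 3.14 and 3.31 on the shBRG1 arrays and 3.48, 3.48 and 3.69 on the NSC arrays. The shBRG1 arrays spanned the whole NSC range, and the change of -0.12 (SE 0.17, limma adjusted p = 0.71) became 0.03 without shBRG1 replicate 2. The D1-like genes were DRD1, with 3.46, 3.21 and 3.35 on the shBRG1 arrays and 3.30, 3.186 and 3.34 on the NSC arrays, and DRD5. DRD5 had 4.56, 4.63 and 4.70 on the shBRG1 arrays and 4.55, 4.60 and 4.70 on the NSC arrays. Both overlapped between groups, with changes of 0.07 (SE 0.09, limma adjusted p = 0.66) for DRD1 and 0.01 (SE 0.07, limma adjusted p = 0.93) for DRD5. The sign of the DRD5 change turned after centring and without either of 2 arrays.

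**Figure D2:**
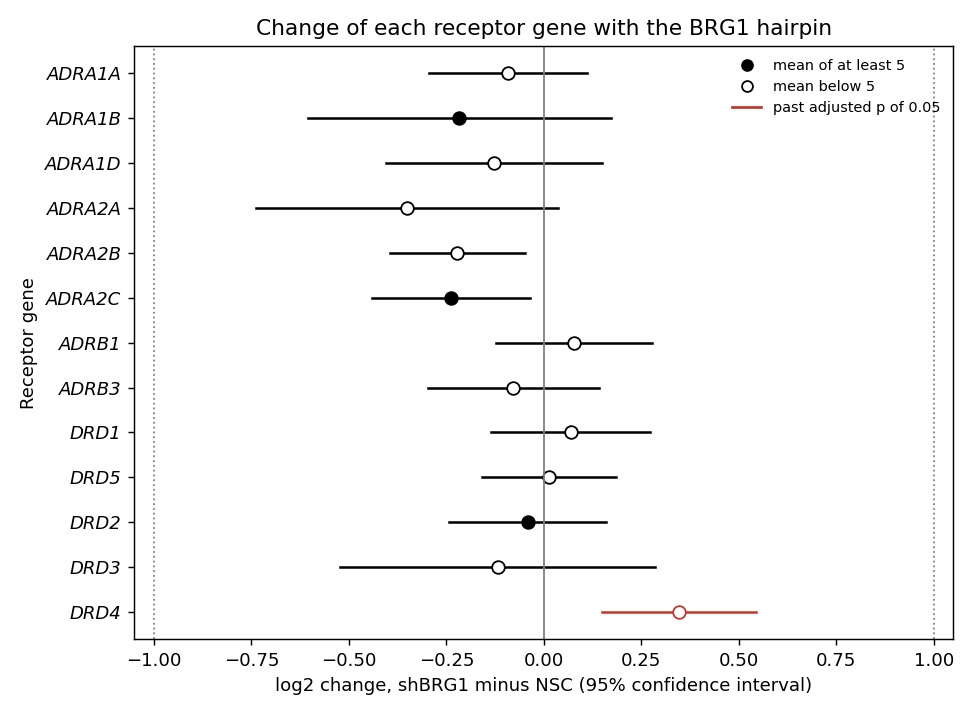
Log2 change (shBRG1 minus NSC) of the 13 receptor genes with its 95% confidence interval from limma (3 arrays per group). Filled points have a mean of at least 5, open points a lower mean, red marks an adjusted p under 0.05, and dotted lines mark a 2-fold change. The 6 ADRA estimates are all left of 0, and DRD4 is the only gene past the threshold.

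The promoters of DRD4, the gene that was called, and of ADRA2C, the one gene of the expressed group whose groups did not overlap, are shown so that the sequence before the start of each can be read beside its values. Sequences are the 250 bases before the annotated start from RefSeq (GRCh38.p14), where 8 of the 13 genes had an entry. Capitals mark matches on either strand to 4 short motifs: the GC box GGGCGG, the E-box CACGTG, the CRE core TGACG and the TATA box TATAAA. No match overlaps another.
DRD4, chr11:637019-637268, plus strand: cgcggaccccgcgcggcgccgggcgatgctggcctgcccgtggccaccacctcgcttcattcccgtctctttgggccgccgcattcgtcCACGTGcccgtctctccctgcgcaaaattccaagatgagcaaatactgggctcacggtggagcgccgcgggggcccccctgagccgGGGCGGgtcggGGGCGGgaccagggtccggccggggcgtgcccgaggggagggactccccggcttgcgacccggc
ADRA2C, chr4:3766135-3766384, plus strand: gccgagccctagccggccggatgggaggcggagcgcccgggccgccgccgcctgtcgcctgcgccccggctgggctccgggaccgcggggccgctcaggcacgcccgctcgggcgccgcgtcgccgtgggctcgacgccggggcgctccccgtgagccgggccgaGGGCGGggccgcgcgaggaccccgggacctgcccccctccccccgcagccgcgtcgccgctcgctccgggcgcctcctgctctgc
Both are rich in G and C, 74.4% for DRD4 and 84.8% for ADRA2C. DRD4 has 32 CpG dinucleotides in this window, more than 90.5% of the 35116 entries of the table, and ADRA2C has 44, more than 99.2%. Such windows were not particular to these 2 genes. ADRA1B, ADRA2A, ADRB1, DRD1 and DRD5 had 68.8% to 79.6% G and C and 22 to 33 CpG. Only the 2 entries of DRD3 were lower, at 45.6% and 32.8%. ADRA1B, DRD1 and DRD5 each held 3 GC boxes, and DRD1 and ADRA2A each held 1 E-box. The DRD4 window holds 2 GC boxes and 1 E-box, which ends 156 bases before the start, and the ADRA2C window holds 1 GC box, 80 bases before the start. Over all entries, windows of the same length held a GC box in 42.6%, an E-box in 6.34%, a CRE core in 21.2% and a TATA box in 10.7%. These matches describe the letters only.

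**Figure D3:**
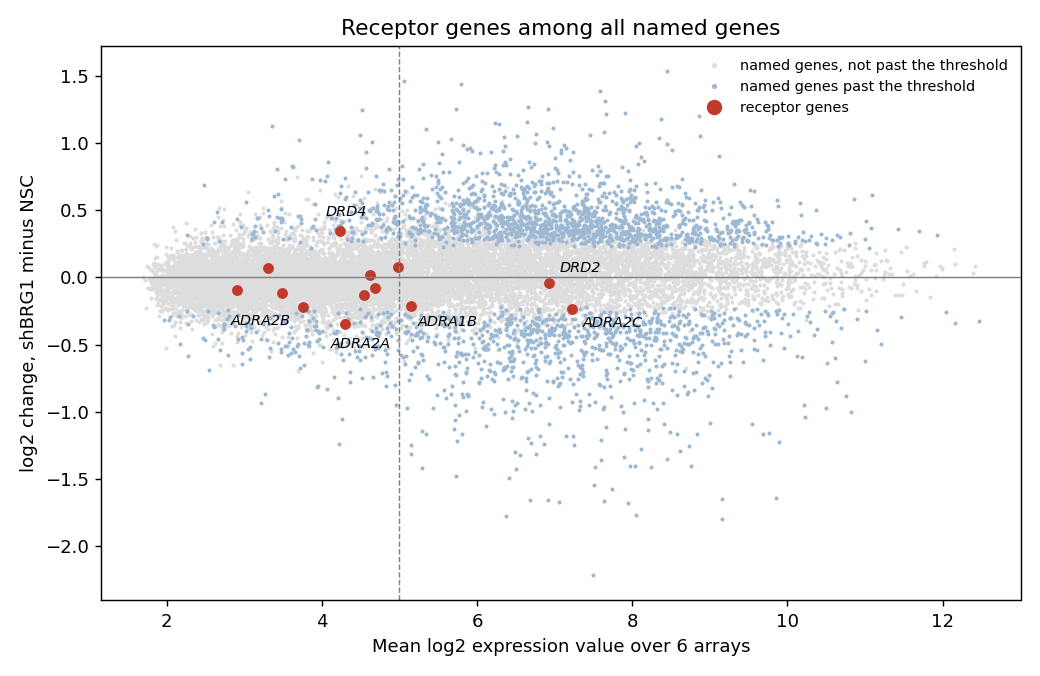
Mean log2 expression value over the 6 arrays (horizontal axis) against the log2 change, shBRG1 minus NSC (vertical axis), for 14883 named genes (grey, or pale blue when past an adjusted p of 0.05 in limma) and the 13 receptor genes (red). The dashed line marks a mean of 5. The receptor genes lie between -0.35 and 0.35, and 10 of them are left of the line.

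Genes that act beside neurotransmitter receptors changed in both directions, in 5 lists with 84 measured of 154 listed genes (a sixth list, of transmitter transporters, was not analysed here). With limma, 9 of the 84 fell and 5 rose, and the other 70 did not pass, so 16.7% were called, against 17% of all named genes. That share was 28.8% of named genes with a mean of at least 5 and 4.52% of those below. The same shares stand beside the counts of each list and of the adenylyl cyclase genes below. Those counts are small and are not read as results about each list. The median change of the 84 genes was -0.04, against 0.01 over all named genes. Among the second messenger targets, which relay signals from receptors such as the 13 described above, 4 of 15 measured genes fell and 1 rose (list median -0.11). The calcium-inhibited adenylyl cyclase gene ADCY6 had log2 values of 5.81, 5.92 and 5.79 on the shBRG1 arrays, against 6.49, 6.41 and 6.56 on the NSC arrays. The groups were well apart, and the change was -0.64 (SE 0.07, limma adjusted p = 0.0019), or -0.36 for the mean of its 2 probe sets.

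The calmodulin-stimulated cyclase gene ADCY1 also fell, with log2 values of 7.23, 7.16 and 7.28 on the shBRG1 arrays and 7.66, 7.68 and 7.63 on the NSC arrays (change -0.43, limma adjusted p = 0.0053). ADCY9, another adenylyl cyclase gene, rose, with 7.55, 7.60 and 7.53 on the shBRG1 arrays and 7.05, 6.996 and 7.16 on the NSC arrays (change 0.49, limma adjusted p = 0.0042). The list held 8 genes of adenylyl cyclases, the enzymes that alpha2, beta and dopamine receptors regulate (ADCY4 and ADCY10 were not in it), of which 2 fell and 1 rose, and 5 did not pass. The calmodulin-dependent kinase gene CAMK4 fell by 0.38 on the log2 scale (limma adjusted p = 0.0097). So did the receptor kinase gene GRK6, named after its value was seen (change -0.38, limma adjusted p = 0.017), whose family phosphorylates active receptors.

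Auxiliary subunits and assembly factors of ion channel receptors were 17 measured genes, of which 2 fell and 1 rose, with 14 that did not pass (list median -0.08). NETO2, an auxiliary subunit of kainate-type glutamate receptors, had log2 values of 9.13, 9.23 and 8.94 on the shBRG1 arrays, against 10.28, 10.29 and 10.22 on the NSC arrays. It was the one gene of the 84 with a change of at least 2-fold, at -1.17 (SE 0.09, limma adjusted p = 4.0e-04), 2.25-fold lower in shBRG1. Over all named genes, 103 of 14883 had a change of that size. OLFM1, an olfactomedin that binds AMPA receptor complexes, fell by 0.45 (limma adjusted p = 0.0056), and CPT1C, an interactor of AMPA receptors, rose by 0.36 (limma adjusted p = 0.042). The CPT1C call was lost without NSC replicate 2 or 3 or any 1 of the shBRG1 arrays, after cyclic loess and with every probe set tested (0.013 to 0.12 over the alternatives).

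Of 19 postsynaptic scaffold and clustering genes, 2 rose and 2 fell, with 15 that did not pass (list median -0.04). SHANK1, a scaffold of glutamatergic synapses, had log2 values of 5.80, 5.99 and 5.77 on the shBRG1 arrays, against 4.98, 4.92 and 5.40 on the NSC arrays. The change was 0.75 (SE 0.14, limma adjusted p = 0.0094). NSF, an ATPase of membrane fusion that also binds AMPA receptors, had 8.48, 8.60 and 8.34 on the shBRG1 arrays and 9.23, 9.18 and 9.11 on the NSC arrays (change -0.70, limma adjusted p = 0.0022). PICK1, which binds AMPA receptor tails, rose by 0.42 (limma adjusted p = 0.012), and the mean of its 2 probe sets had a change of 0.20 (adjusted p = 0.059). LRP4, the agrin receptor of the neuromuscular junction, fell by 0.23 with a limma adjusted p of 0.0499, which was lost without any 1 of the 6 arrays, after cyclic loess, with trend and robust options and with every probe set tested (0.044 to 0.15 over the alternatives).

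Receptors of other transmitters and peptides gave 1 rise and 1 fall among 17 measured genes (list median 0.04). ADCYAP1R1, the receptor of the neuropeptide PACAP, had log2 values of 7.16, 7.43 and 7.27 on the shBRG1 arrays, against 6.81, 6.88 and 6.83 on the NSC arrays (change 0.45, SE 0.08, limma adjusted p = 0.012). SSTR2, a somatostatin receptor that inhibits adenylyl cyclase, had 6.22, 6.33 and 6.07 on the shBRG1 arrays, against 6.66, 6.53 and 6.53 on the NSC arrays (change -0.37, SE 0.09, limma adjusted p = 0.027). The groups of neither gene overlapped. The SSTR2 call held without shBRG1 replicate 2 but was lost without each of the other 5 arrays in turn and with every probe set tested (0.0071 to 0.086 over the alternatives).

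The enzymes that make and break down the transmitters gave 0 rises and 0 falls among 16 measured genes in limma, with 1 (MAOB, a dim gene) at an unadjusted p under 0.05. The catecholamine enzymes were among the brighter genes of the list. TH, the first enzyme of the pathway, had a change of 0.11 (95% interval -0.07 to 0.28), DDC, the decarboxylase that makes dopamine, one of 0.06 (-0.09 to 0.21), and DBH, which makes noradrenaline, one of 0.08 (-0.08 to 0.24). PNMT, which makes adrenaline, was dim, at a mean of 3.52, with a change of -0.04.

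**Figure D4:**
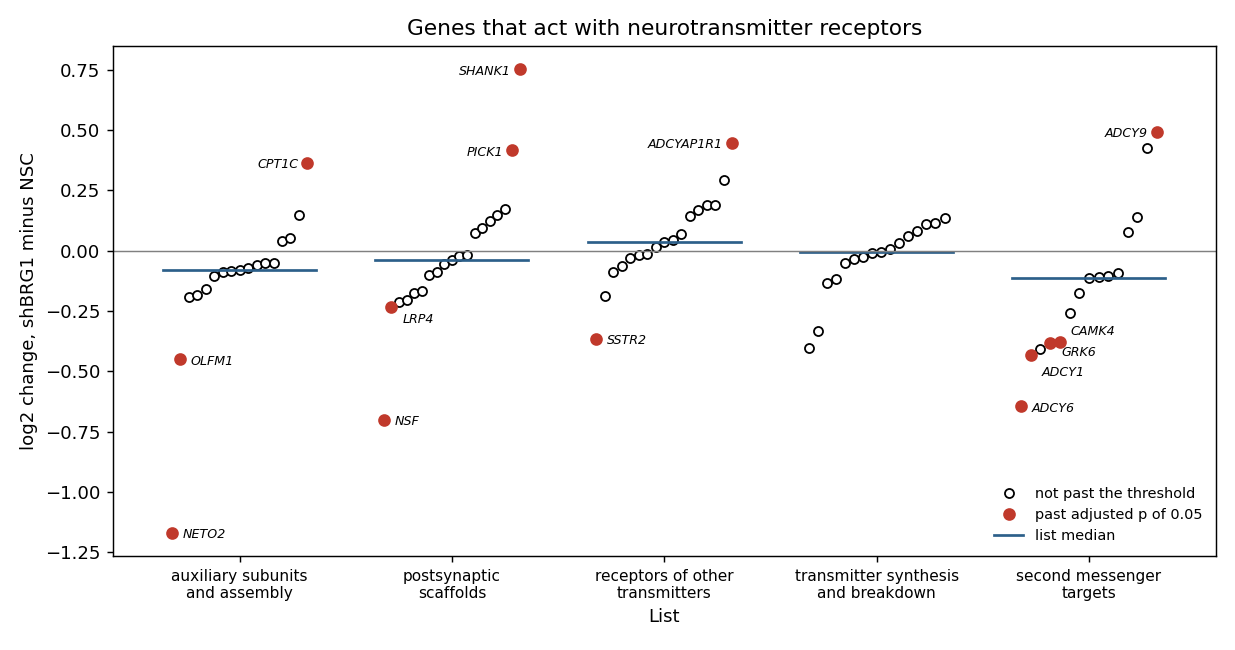
Log2 change (shBRG1 minus NSC) of 84 genes that act beside neurotransmitter receptors, in 5 lists (horizontal axis) and ordered by change within each. Filled red points passed an adjusted p of 0.05 in limma, open points did not, and blue bars are list medians, which range from -0.11 to 0.04.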

How the data were processed

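The authors deposited 1 log2 expression value per probe set and array. The submitters' processing notes name RMA with R 3.1.0, oligo 1.27 and limma 3.19. The log2 scale was taken from the range of the values. RMA sets arrays to a common distribution, which hides a shift of all genes at once and can understate the changes of dim probe sets. The sources used here give no genome build for the probes. Of 52299 probe sets, 36471 had no gene symbol, 0 had several and 15828 had 1, which was updated through gene identifiers of the GRCh38.p14 table. The brightest probe set per gene left 14883 genes.

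Each gene was fitted with limma 3.58.1 in R 4.3.3 (lmFit, eBayes, two-sided, no covariates), with Benjamini-Hochberg adjustment over all named genes and a threshold of 0.05. Changes are shBRG1 minus NSC. With 3 arrays a group, the smallest two-sided p of an exact permutation test is 0.1. The 3 arrays per group limit the precision, and the median standard error was 0.09. On simulated data with 14883 genes, this fit called 42 of 100 shifted by 0.5 and 87 of 100 shifted by 1 (log2 scale). No other genes were shifted there, and 134 calls were made in all, against 2525 on the measured arrays. The adjustment depends on the share of genes that pass, and recovery at 2525 calls was not tested.

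The members and lists were chosen with earlier results of these data known. The text names all 13 members and, of each list, up to 4 genes with the smallest p among those past the threshold. Genes named outside this rule, after their values were seen, are GRK6, MAOB, TH, DDC, DBH, PNMT and the cell type markers that were called or stand for a whole list. Alternatives were centring, cyclic loess, leaving out dim genes, averaging probe sets, trend and robust options, array weights, the replicate block, each array left out, every probe set tested, an adjusted p of 0.01, and limits of 4.5, 5.5 and 6 for expressed genes. Figures used matplotlib 3.10.9 in Python 3.11.15.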

Additional observations from a re-analysis of the deposited data

How the results depend on the processing

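Of the receptor genes, 0 were lower with the settings used, and 1 (ADRA2C) after cyclic loess, when dim genes were left out and when trend and robust options were used. The number higher, 1 (DRD4), was 0 with dim genes left out, where DRD4 was not tested, with trend and robust options, with the replicate block, with every probe set tested and at an adjusted p of 0.01. Leaving out 1 array gave 0 to 1 higher. The median change of the expressed receptor genes, -0.22, was -0.079 when a mean of 4.5 counted as expressed and ranged from -0.24 to -0.10 with 1 array left out (-0.10 without NSC replicate 3). The partner lists had 5 genes higher and 2 at an adjusted p of 0.01, and 9 lower with 6 to 8 when 1 array was left out. Over all named genes, 2525 calls became 3306 with trend and robust options, 3201 with dim genes left out, 1608 with the replicate block, 1259 with every probe set tested, 1086 at an adjusted p of 0.01, and 1633, 1662 and 1604 without shBRG1 replicate 1, 2 or 3. With 1 array left out, the DRD3 change ranged from -0.32 to 0.028 (without shBRG1 replicate 2), and the DRD5 change from -0.020 (without shBRG1 replicate 3, and -0.018 without NSC replicate 1) to 0.054. The calls of CPT1C, LRP4 and SSTR2 were also not made with the replicate block (adjusted p = 0.075, 0.13 and 0.060). After centring the DRD5 change was -0.0042. The labels give no pairing beyond the replicate number. For arrays of the same number, deviations from the group means correlated at -0.04, -0.14 and -0.03, and no array correlated best with its own number. The deviations are forced to balance within each group, so these correlations cannot show whether arrays of the same number shared a batch. The cause of the differences between settings was not tested. Dim probe sets limit what can be said of 10 of the 13 genes.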
